A study of Homo sapiens with 10 samples.

Results

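The non-clustered protocadherins are cadherin-superfamily membrane proteins encoded by genes that stand alone in the genome, apart from the clustered α, β and γ protocadherins. The 8 symbols of this family followed here (PCDH1, PCDH7, PCDH8, PCDH9, PCDH10, PCDH17, PCDH18 and PCDH19) were measured in 10 bulk RNA-sequencing libraries of ESI017, a wild-type human embryonic stem cell line, and were chosen by symbol. They are 8 of the 35940 gene rows in the table once identifiers are summed per symbol. All 8 passed the filter on low counts, which left 15251 genes for testing. The 10 libraries form 5 groups of 2. Recombinant WNT3A, the ligand that opens the canonical WNT pathway, was given at 300 ng/ml for 6 h or 18 h. CHIR99021, a small molecule that inhibits GSK3 and so stabilises β-catenin inside the cell, was given at 8 µM for 6 h or 18 h. The remaining group, called mTeSR1 after the medium in which every culture was kept, received no addition. Cells had been plated in 12-well plates 24 h before treatment. The labels give neither a harvest time for mTeSR1 nor a solvent control for CHIR99021, so time in culture and solvent cannot be told apart from treatment. All data come from 1 cell line. Each group but CHIR99021 18 h has a library from each of 2 biological repeats, and the labels do not say whether the CHIR99021 18 h pair came from separate cultures.

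Non-clustered protocadherins carry extracellular cadherin repeats that bind mainly to their own kind on the neighbouring cell, and weak adhesion between cells that share a protocadherin helps tissues to sort and to move. The delta-1 members (PCDH1, PCDH7 and PCDH9) share a cytoplasmic motif that binds protein phosphatase 1. The delta-2 members (PCDH8, PCDH10, PCDH17, PCDH18 and PCDH19) lack it, and PCDH10, PCDH17 and PCDH19 are known to recruit the WAVE complex, which builds branched actin. In the vertebrate embryo PCDH8, the homologue of Xenopus paraxial protocadherin, marks paraxial mesoderm, a descendant of the WNT-dependent primitive streak, while most of the family is best known from the developing brain.

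Library totals lay between 1.66e+07 and 2.67e+07 estimated counts, so 3 counts correspond to 0.112 to 0.18 CPM (counts scaled to a total of 1e+06 per library). Levels below are CPM after TMM scaling, and a gene is said to rise or fall where edgeR's quasi-likelihood test gave a Benjamini-Hochberg adjusted p (FDR) under 0.05 over all genes tested. Each of 10 pluripotency markers passed the filter, and their summed level stayed between 7.63e+03 and 9.01e+03 CPM in every library. Primitive streak markers (TBXT, EOMES, MIXL1, GSC and MESP1) summed to 72 and 74.2 CPM after 6 h of WNT3A, 232 and 241 CPM after 18 h of WNT3A, 6.33 and 8.09 CPM after 6 h of CHIR99021, 22.1 and 209 CPM after 18 h of CHIR99021, and 0.471 and 1.59 CPM in mTeSR1, where TBXT, GSC and MESP1 were at 0. The CHIR99021 18 h libraries thus stood far apart from each other on these markers. TBXT, EOMES and MIXL1 made up nearly all of the sums in treated libraries. GSC and MESP1 did not pass the filter and reached at most 1.84 CPM for GSC and 0.472 CPM for MESP1 in any library. Both CHIR99021 18 h libraries belong to repeat 2, and comparisons with that group therefore had the repeat as a block. Mitochondrially encoded transcripts, listed as a sign of RNA quality, made up 4.6% and 5.64% of counts after 6 h of WNT3A, 2.66% and 4.08% after 18 h of WNT3A, 3.68% and 4.91% after 6 h of CHIR99021, 5.02% and 5.09% after 18 h of CHIR99021, and 3.89% and 6.93% in mTeSR1. Their median log2 fold change after 18 h of WNT3A was -0.72 against mTeSR1 and -0.72 against 6 h of WNT3A. Of the 13 transcripts, edgeR called 0 in both, with 8 and 6 at an unadjusted p under 0.05, and DESeq2 called 2 (MT-ND4L and MT-ND5) and 3 (these and MT-ND6). PCDH10 was called in both of these comparisons and PCDH1 in the first, and the part of the mitochondrial transcripts in those calls was not tested. The second libraries of mTeSR1 and WNT3A 6 h also stood apart: their deviations rose with transcript length (Spearman's rho of 0.349 for mTeSR1 and 0.448 for WNT3A 6 h, across 15142 genes of one library each), against -0.293 to -0.013 in the other 8.

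PCDH1 was by far the most abundant family member per transcript length. Dividing CPM by the length of the longest coding transcript, the median over the 10 libraries was 54 CPM per kb for PCDH1 and 11.9 CPM per kb for PCDH18. The other 6 were lower, at 0.85 for PCDH19, 0.783 for PCDH7, 0.701 for PCDH8, 0.409 for PCDH10, 0.105 for PCDH9 and 0.074 CPM per kb for PCDH17. Among these 6 the range over libraries of each gene overlapped with that of its neighbour in this order, so that the order is not separated from the spread. PCDH1 made up 76.8% and 76.9% of the summed CPM per kb of the 8 genes after 6 h of WNT3A, 72.5% and 72.4% after 18 h of WNT3A, 79.7% and 77.6% after 6 h of CHIR99021, 78% and 68.5% after 18 h of CHIR99021, and 88.3% and 89.8% in mTeSR1. Its share was lower in each of the 8 treated libraries than in either mTeSR1 library.

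**Figure D1:**
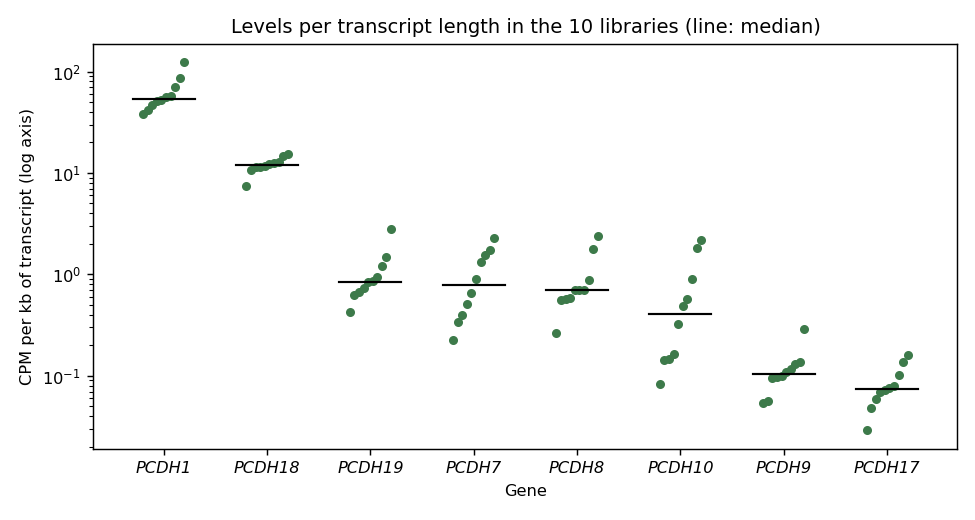
Level of each gene in CPM per kb of its longest coding transcript (vertical, log axis) for the 8 genes (horizontal), with 1 point per library and the median as a line. PCDH1 and PCDH18 lie above the other 6 genes, whose medians run from 0.85 down to 0.074 CPM per kb.

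PCDH1 and PCDH7 are shown with the 250 bases before their RefSeq start, since they are the 2 family members that lay below both mTeSR1 libraries in all 4 libraries at 18 h. Sequences are from RefSeq's promoter table for GRCh38.p14, which held 7 of the 8 symbols, all but PCDH10. Capitals mark the T-box half-site AGGTGT in PCDH1 and the TCF/LEF core CTTTGA in PCDH7. The PCDH1 window, chr5:141869628-141869877 on the minus strand, lies in introns of longer PCDH1 transcripts in GENCODE. The PCDH7 window, chr4:30720119-30720368 on the plus strand, lies just upstream of the annotated gene.
PCDH1: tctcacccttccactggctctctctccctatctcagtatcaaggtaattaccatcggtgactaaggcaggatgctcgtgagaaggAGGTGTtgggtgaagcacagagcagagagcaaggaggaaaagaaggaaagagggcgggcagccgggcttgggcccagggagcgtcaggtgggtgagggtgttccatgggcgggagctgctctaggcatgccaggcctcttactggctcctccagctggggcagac
PCDH7: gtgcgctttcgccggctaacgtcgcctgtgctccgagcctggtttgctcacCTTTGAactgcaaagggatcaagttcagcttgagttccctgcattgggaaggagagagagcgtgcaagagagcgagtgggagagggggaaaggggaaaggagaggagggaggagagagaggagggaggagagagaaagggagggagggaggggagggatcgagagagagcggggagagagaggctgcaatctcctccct

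Both motifs were searched on both strands, from 250 bases before to 50 after the start. The core CTTTGA, which on the other strand reads as TCAAAG, occurred in 1 of the 7 windows, at position -199 in PCDH7, and in 12.9% of 35116 RefSeq windows of that length. The half-site AGGTGT, which on the other strand reads as ACACCT, occurred in 1 of the 7, at position -165 in PCDH1, and in 11.4% of all windows. A match of 6 letters is a description of the sequence only. The GC content of the 2 printed stretches was 59.2% in PCDH1 and 59.6% in PCDH7, with 6 CpG dinucleotides in PCDH1 and 10 in PCDH7.

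PCDH10 and PCDH1 carried the calls. PCDH10 rose and PCDH1 fell after 18 h of WNT3A against mTeSR1, which makes 2 of 8 genes called where 2.1% of all genes tested were called. After 18 h of CHIR99021 against mTeSR1, 1 of 8 was called, PCDH1, which fell, where 2.78% of all genes were called. At 6 h none of the 8 was called by edgeR with either agent, where 0.433% of all genes were called for WNT3A and 0.0197% for CHIR99021. Without adjustment, a p under 0.05 was found at 6 h for 4 of the 8 with WNT3A, against 939 of 15251 genes tested, and for 2 of the 8 with CHIR99021, against 723 of 15251. DESeq2 called 2 (PCDH9 and PCDH10) at 6 h of WNT3A, where it called 249 genes in all, and 1 (PCDH1) at 6 h of CHIR99021, where it called 65. With the biological repeat as a block in the WNT3A comparisons too, edgeR also called PCDH10 at 6 h (1 of 8, where 1.1% of all genes were called) and PCDH7 at 18 h (3 of 8 in all, where 4.92% were called). The median log2 fold change of the 8 genes was 0.67 after 6 h of WNT3A, 0.10 after 18 h of WNT3A, -0.36 after 6 h of CHIR99021 and -0.07 after 18 h of CHIR99021, against 0.01, 0.02, 0.01 and 0.02 over all genes tested in the same order. The 4 comparisons share the mTeSR1 libraries.

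**Figure D2:**
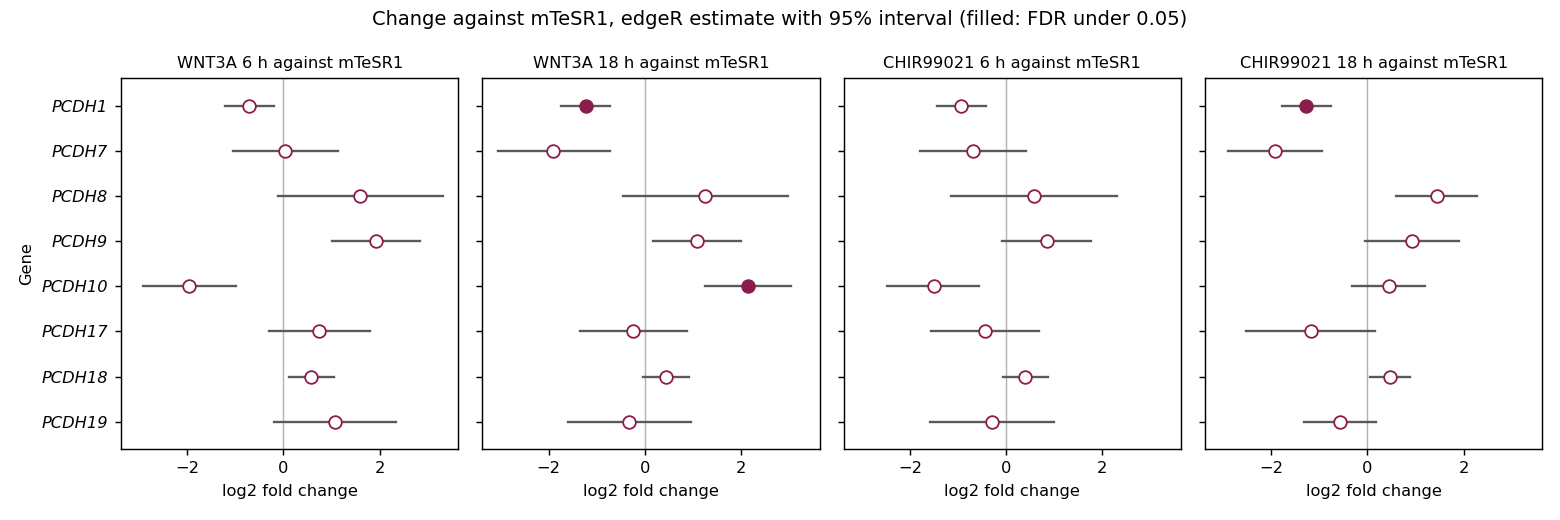
Log2 fold change against mTeSR1 (horizontal) of the 8 genes (vertical) in 4 comparisons, with bars for the 95% interval of the edgeR estimate and filled points for an FDR under 0.05. The filled points are PCDH1 and PCDH10 after 18 h of WNT3A and PCDH1 after 18 h of CHIR99021.

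Whether the libraries of 2 groups overlapped was counted gene by gene. After 6 h of WNT3A, both libraries lay above both of mTeSR1 for PCDH9, PCDH17 and PCDH18 (3 of 8, against 13.7% of all genes tested) and below for PCDH1 and PCDH10 (2 of 8, against 12%). After 18 h of WNT3A they lay above for PCDH9, PCDH10 and PCDH18 (3 of 8, against 21.8%) and below for PCDH1 and PCDH7 (2 of 8, against 21.3%). After 6 h of CHIR99021 they lay above for PCDH9 and PCDH18 (2 of 8, against 16.5%) and below for PCDH1, PCDH10 and PCDH17 (3 of 8, against 15.9%). After 18 h of CHIR99021 they lay above for PCDH8, PCDH9 and PCDH18 (3 of 8, against 24.2%) and below for PCDH1, PCDH7 and PCDH17 (3 of 8, against 22.7%). PCDH1 was thus below, and PCDH9 and PCDH18 above, in all 4 treated groups. The 4 groups were set against the same mTeSR1 libraries, and the share of all genes that did so in all 4 was not counted.

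PCDH1 is a delta-1 protocadherin best known from airway epithelium, where it supports adhesion and barrier function. Its gene (ENSG00000156453) lies at chr5:141853111-141879246 on the minus strand, GRCh38. PCDH1 was at 270 and 339 CPM after 6 h of WNT3A, 226 and 198 CPM after 18 h of WNT3A, 275 and 247 CPM after 6 h of CHIR99021, 248 and 181 CPM after 18 h of CHIR99021, and 410 and 587 CPM in mTeSR1. Every treated library was lower than both mTeSR1 libraries, and the groups did not overlap with mTeSR1. PCDH1 fell by 1.23 on the log2 scale after 18 h of WNT3A (SE 0.23, FDR 0.031 by edgeR), 2.35-fold lower than in mTeSR1. Under CHIR99021 at 18 h it fell by 1.27 (SE 0.22, FDR 0.025 by edgeR with the repeat as a block), 2.41-fold lower than in mTeSR1. At 6 h the differences from mTeSR1 did not pass, with an FDR of 0.42 for WNT3A and 0.59 for CHIR99021 by edgeR.

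The PCDH1 difference had the same sign in each repeat. Within repeat 1 the log2 CPM of PCDH1 differed from mTeSR1 by -0.60 after 6 h of WNT3A, -0.86 after 18 h of WNT3A and -0.58 after 6 h of CHIR99021. Within repeat 2 the differences were -0.79 after 6 h of WNT3A, -1.57 after 18 h of WNT3A, -1.25 after 6 h of CHIR99021, and -1.24 and -1.69 for the 2 libraries at 18 h of CHIR99021. The PCDH1 differences in repeat 2 were thus the larger ones in size, and mTeSR1 replicate 2 was the higher of the mTeSR1 libraries. Without mTeSR1 replicate 2 the log2 fold change of PCDH1 was -0.96 after 18 h of WNT3A (FDR 0.16 by edgeR) and -0.93 after 18 h of CHIR99021 (FDR 0.45), and the fit then assumes that the lone mTeSR1 library varies like the others. Without both libraries that follow transcript length the PCDH1 values were -0.95 (FDR 0.081) and -0.76 (FDR 0.32) for the same comparisons, with 4.79 kb of coding transcript for PCDH1. The WNT3A 18 h call of PCDH1 was also lost without WNT3A 18 h replicate 1 (FDR 0.14) or 2 (0.25), or CHIR99021 6 h replicate 1 (0.068) or 2 (0.067), and the CHIR99021 18 h call without mTeSR1 replicate 1 (0.055) or CHIR99021 18 h replicate 2 (0.21).

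By rising mean level, PCDH1 was at 212 ± 19.6 CPM after 18 h of WNT3A, 215 ± 47.2 CPM after 18 h of CHIR99021, 261 ± 19.5 CPM after 6 h of CHIR99021, 304 ± 48.8 CPM after 6 h of WNT3A and 498 ± 125 CPM in mTeSR1 (SD, n = 2 each). Neighbours among the 4 treated groups overlapped. Both WNT3A 18 h libraries lay below both WNT3A 6 h libraries, with an FDR of 0.37 by edgeR. The 3 genes whose log2 CPM followed PCDH1 most closely over the 10 libraries were RAPGEF2 (Pearson's r of 0.981), BNC2 (0.980) and LARP1 (0.972), given as a description of libraries that share treatments and repeats. BNC2, a zinc-finger gene, was at 14.7 ± 1.4 CPM after 18 h of WNT3A, 17.1 ± 3.14 CPM after 18 h of CHIR99021 and 36.1 ± 9.46 CPM in mTeSR1 (SD, n = 2 each).

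PCDH7, a delta-1 member known to bind the phosphatase inhibitor SET and protein phosphatase 1, was scarcer than PCDH1. Like those of PCDH1, its 18 h libraries lay below mTeSR1 with both agents, but its 6 h groups overlapped with mTeSR1. Its gene (ENSG00000169851) spans chr4:30720415-31146805 on the plus strand, with 2 annotated genes on the opposite strand inside it, whose reads were not separated here. PCDH7 was at 10.6 and 11.7 CPM after 6 h of WNT3A, 3.48 and 2.3 CPM after 18 h of WNT3A, 8.98 and 4.48 CPM after 6 h of CHIR99021, 2.69 and 1.52 CPM after 18 h of CHIR99021, and 15.5 and 6.13 CPM in mTeSR1. The 4 libraries at 18 h were the 4 lowest, and none overlapped with mTeSR1 or with the 6 h libraries. PCDH7 had a log2 fold change against mTeSR1 of -1.90 after 18 h of WNT3A (SE 0.51, FDR 0.12 by edgeR), and -1.83 with the repeat as a block, where it passed (FDR 0.032, 4.92% of all genes called in that fit). With 18 h of CHIR99021 the log2 fold change was -1.92 (SE 0.43, FDR 0.056 by edgeR with the block). DESeq2 called PCDH7 with both agents at 18 h (FDR 0.0076 for WNT3A and 0.00096 for CHIR99021). Within repeats PCDH7 differed from mTeSR1 by -2.12 and -1.37 after 18 h of WNT3A, and by -1.16 and -1.94 for the CHIR99021 18 h libraries, all on the log2 scale. Without mTeSR1 replicate 1, the library highest in PCDH7, the WNT3A 18 h estimate was -1.09 (FDR 0.3 by edgeR).

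PCDH7 was also compared between times and between agents. At 18 h against 6 h of WNT3A its log2 fold change was -1.94 (SE 0.51, FDR 0.18 by edgeR), and -2.03 with the repeat as a block (FDR 0.043, where 1.83% of all genes were called). At 18 h against 6 h of CHIR99021 it was -1.26 (SE 0.43, FDR 0.51 by edgeR with the block). For CHIR99021 against WNT3A it was -0.73 at 6 h (95% interval -1.84 to 0.38, FDR 0.71 by edgeR) and -0.08 at 18 h (95% interval -1.09 to 0.93, FDR 1 with the block). Within repeats the 6 h difference between the agents was -0.24 in repeat 1 and -1.37 in repeat 2. At 6 h of WNT3A, PCDH7 differed from mTeSR1 by -0.54 within repeat 1 and 0.92 within repeat 2 on the log2 scale, so the sign was not shared.

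PCDH9, the remaining delta-1 gene and one expressed in neurons, lay higher in all treated libraries than in mTeSR1. Its gene (ENSG00000184226) spans chr13:66302834-67230445 on the minus strand and overlaps 5 genes on the opposite strand, whose reads were not separated here. PCDH9 was at 3.68 and 8.09 CPM after 6 h of WNT3A, 3.91 and 2.71 CPM after 18 h of WNT3A, 2.76 and 2.81 CPM after 6 h of CHIR99021, 3.1 and 3.27 CPM after 18 h of CHIR99021, and 1.52 and 1.59 CPM in mTeSR1. The 8 treated libraries were all above mTeSR1, and the highest was WNT3A 6 h replicate 2. Its log2 fold change was 1.92 after 6 h of WNT3A (SE 0.40, FDR 0.12 by edgeR) and 1.09 after 18 h of WNT3A (SE 0.40, FDR 0.26), and it was not called in any comparison as fitted. Its longest coding transcript, 28.23 kb, is the longest of the 8, and WNT3A 6 h replicate 2 is a library in which deviations rose with length. With transcript length as an offset the log2 fold change of PCDH9 was 1.59 after 6 h of WNT3A (FDR 0.071 by edgeR), and it passed after 18 h of WNT3A at 1.60 (FDR 0.034) and after 18 h of CHIR99021 at 1.47 (FDR 0.032), against 0.93 without the offset (FDR 0.27). At 6 h of WNT3A it passed with the offset and the block (1.61, FDR 0.025 by edgeR), by DESeq2 (FDR 0.0074) and by edgeR with no filter (FDR 0.009). Of 19 alternatives, 4 called PCDH9 at 6 h of WNT3A and 15 did not. The 6 h estimate was 2.38 and passed without WNT3A 6 h replicate 1 (FDR 0.03 by edgeR). It was 1.24 without WNT3A 6 h replicate 2 (FDR 0.51) and 1.27 without both libraries that follow transcript length (FDR 0.88).

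**Figure D3:**
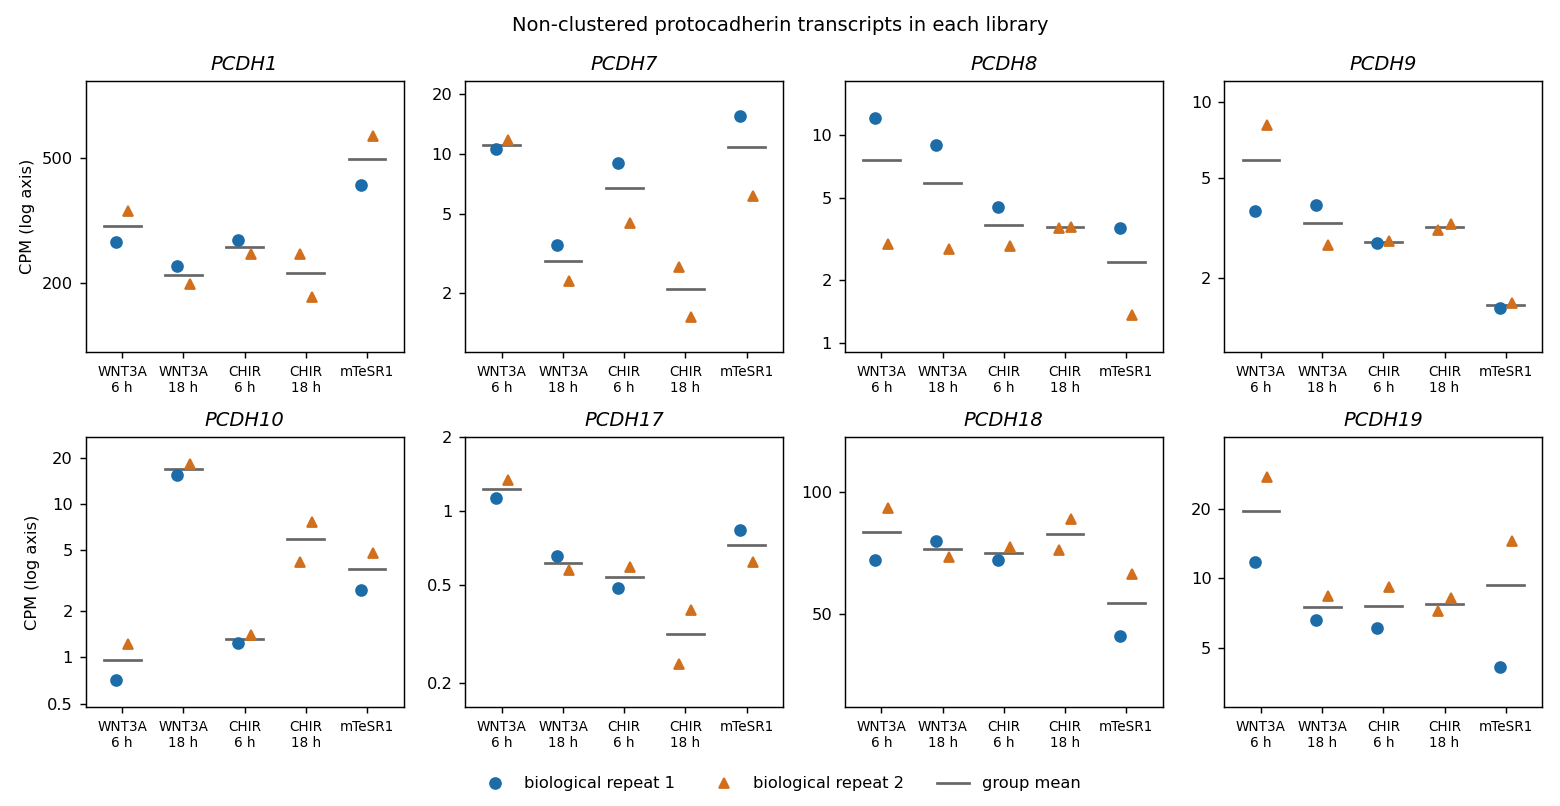
CPM (vertical, log axis) of the 8 genes in each of the 10 libraries, grouped by treatment (horizontal), with the biological repeat by colour and shape and the group mean as a line. PCDH10 was highest after 18 h of WNT3A at 15.4 and 18.4 CPM, and PCDH1 was lower in every treated library than in mTeSR1 at 410 and 587 CPM.

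PCDH10, a delta-2 protocadherin that recruits the WAVE component NCKAP1 and in the mouse is needed for growth of striatal axons, had the widest range of the 8. Its gene (ENSG00000138650) lies at chr4:133149315-133208606 on the plus strand, with no overlapping gene in GENCODE. PCDH10 was at 0.708 and 1.22 CPM after 6 h of WNT3A, 15.4 and 18.4 CPM after 18 h of WNT3A, 1.24 and 1.4 CPM after 6 h of CHIR99021, 4.18 and 7.62 CPM after 18 h of CHIR99021, and 2.77 and 4.82 CPM in mTeSR1. Both agents gave low levels at 6 h, below mTeSR1 in every library, and higher ones at 18 h. The WNT3A 18 h libraries were above all others, while those of CHIR99021 at 18 h overlapped with mTeSR1. The estimated counts behind these levels were 15 and 31 after 6 h of WNT3A, 327 and 319 after 18 h of WNT3A, 23 and 26 after 6 h of CHIR99021, 70 and 135 after 18 h of CHIR99021, and 53 and 85 in mTeSR1.

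PCDH10 after 18 h of WNT3A rose by 2.15 on the log2 scale against mTeSR1 (SE 0.39, FDR 0.031 by edgeR), 4.45-fold higher. At 18 h against 6 h of WNT3A it rose by 4.11 (SE 0.44, 95% interval 3.12 to 5.10, FDR 0.027 by edgeR), 17.3-fold higher, and was the 1 of 8 called in a comparison where 0.144% of all genes were called. Both repeats gave this direction, with log2 differences of 4.26 in repeat 1 and 3.81 in repeat 2 between 18 h and 6 h of WNT3A, and of 2.43 and 1.91 between 18 h of WNT3A and mTeSR1. At 6 h of WNT3A, PCDH10 had a log2 fold change of -1.96 against mTeSR1 (SE 0.42, FDR 0.14 by edgeR), and passed with the repeat as a block (-1.96, FDR 0.046, where 1.1% of all genes were called). The within-repeat values there were -1.83 and -1.90.

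The PCDH10 calls depended on single libraries and on the groups fitted for their side of the threshold, not for their direction. With the compared groups alone the 18 h against 6 h estimate was 4.12 and did not pass (FDR 0.12 by edgeR). Without mTeSR1 replicate 2 and WNT3A 6 h replicate 2 it was 4.57 and was not called either. The 18 h against 6 h call was lost without WNT3A 6 h replicate 2 (FDR 0.073 by edgeR), WNT3A 18 h replicate 1 (0.15) or 2 (0.24), or CHIR99021 6 h replicate 1 (0.097) or 2 (0.095), with log2 fold changes between 3.78 and 4.57 over all alternatives. The call against mTeSR1 was lost without mTeSR1 replicate 1 (FDR 0.14) or 2 (0.079), WNT3A 18 h replicate 1 (0.11) or 2 (0.18), or either CHIR99021 6 h library (0.065 for each), with log2 fold changes between 1.79 and 2.60.

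With CHIR99021 the estimates for PCDH10 had the same signs between times but were smaller, and none passed in edgeR with all libraries. At 6 h PCDH10 had a log2 fold change of -1.51 against mTeSR1 (SE 0.42, FDR 0.79 by edgeR). At 18 h against 6 h of CHIR99021 it was 1.92 (SE 0.37, 95% interval 1.08 to 2.76, FDR 0.21 by edgeR with the block), and within repeat 2 the 2 libraries at 18 h lay 1.51 and 2.36 above the 6 h library. Without CHIR99021 18 h replicate 1 this estimate was 2.29 and passed (FDR 0.034), as it did with DESeq2 (1.92, FDR 0.0044). At 18 h CHIR99021 against WNT3A gave -1.75 (SE 0.33, 95% interval -2.49 to -1.01, unadjusted p 0.00051, FDR 0.88 by edgeR with the block), and DESeq2 called it with an FDR of 0.023. The difference between the agents in the change from 6 h to 18 h was -2.23 (SE 0.51, 95% interval -3.40 to -1.06, FDR 0.93 by edgeR with the block). The library with 7.62 CPM of PCDH10 at 18 h of CHIR99021 held 209 CPM of streak markers, and that with 4.18 CPM held 22.1 CPM, and the part of these markers in the PCDH10 level was not tested. In bulk RNA, fewer cells with the transcript and less transcript per cell cannot be told apart.

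By falling mean level, PCDH10 was at 16.9 ± 2.1 CPM after 18 h of WNT3A, 5.9 ± 2.43 CPM after 18 h of CHIR99021, 1.32 ± 0.112 CPM after 6 h of CHIR99021 and 0.963 ± 0.361 CPM after 6 h of WNT3A (SD, n = 2 each). The mTeSR1 mean of 3.8 ± 1.45 CPM (SD, n = 2) stood between those of CHIR99021 at 18 h and 6 h. CHIR99021 18 h and mTeSR1 overlapped, and the 6 h groups differed by 0.44 on the log2 scale (95% interval -0.57 to 1.45, FDR 0.78 by edgeR). The genes closest to PCDH10 over the 10 libraries were NPAP1 (Pearson's r of 0.973), PELI1 (0.954) and P2RY1 (0.954), again a description with no test. NPAP1 lay below the level of 3 counts at 6 h, at 0.0589 ± 0.0833 CPM with WNT3A and 0.081 ± 0.0381 CPM with CHIR99021. After 18 h of WNT3A NPAP1 was at 1.21 ± 0.648 CPM (SD, n = 2 each). P2RY1, a purine receptor, was at 15.8 ± 0.99 CPM after 6 h of WNT3A, 47.2 ± 8.45 CPM after 18 h of WNT3A, 13.6 ± 1.16 CPM after 6 h of CHIR99021, 28.2 ± 3.89 CPM after 18 h of CHIR99021 and 27.9 ± 7.29 CPM in mTeSR1 (SD, n = 2 each), an order that matched that of PCDH10 save at 6 h.

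**Figure D4:**
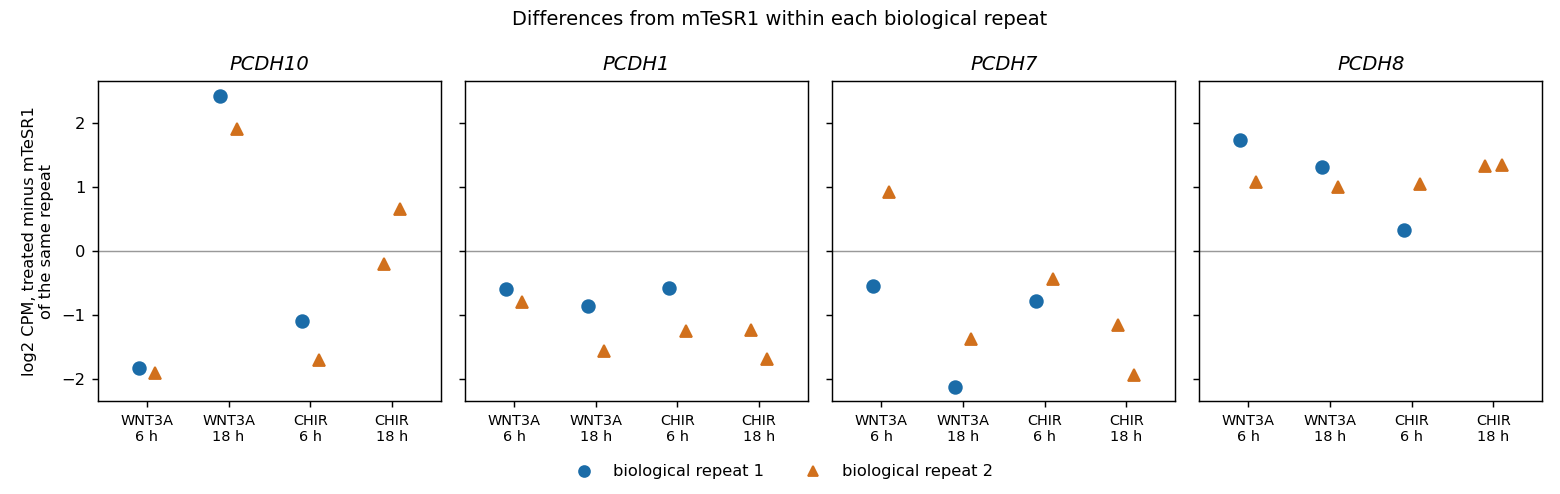
Difference in log2 CPM between each treated library and the mTeSR1 library of the same biological repeat (vertical) for PCDH10, PCDH1, PCDH7 and PCDH8, by treatment (horizontal), with the repeat by colour and shape. Both CHIR99021 18 h libraries are set against the mTeSR1 library of repeat 2. PCDH10 is below 0 at 6 h and at 2.43 and 1.91 after 18 h of WNT3A, while PCDH1 is below 0 and PCDH8 above 0 in every treated library.

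PCDH8, the homologue of the paraxial protocadherin of Xenopus, which drives cell movements in the gastrula, lay above its repeat's mTeSR1 library in all 8 treated libraries. The differences of a repeat share the same mTeSR1 library, and the share of all genes that did so was not counted. The PCDH8 gene (ENSG00000136099) lies at chr13:52842889-52848641 on the minus strand. PCDH8 was at 12.1 and 2.99 CPM after 6 h of WNT3A, 8.99 and 2.82 CPM after 18 h of WNT3A, 4.49 and 2.91 CPM after 6 h of CHIR99021, 3.58 and 3.61 CPM after 18 h of CHIR99021, and 3.56 and 1.36 CPM in mTeSR1. Repeat 1 was higher than repeat 2 in each group that had both, and both WNT3A groups and CHIR99021 6 h overlapped with mTeSR1. In the blocked fit PCDH8 differed by -1.45 on the log2 scale between repeat 2 and repeat 1 (FDR 0.016 by edgeR, with 354 genes higher and 555 lower among all tested). Its log2 fold changes against mTeSR1 were 1.60 after 6 h of WNT3A (SE 0.75, FDR 0.88 by edgeR), 1.26 after 18 h of WNT3A (SE 0.75, FDR 0.54) and 1.44 after 18 h of CHIR99021 (SE 0.37, FDR 0.085 with the block), none of which passed. Leaving out 1 library moved the WNT3A estimates for PCDH8 between 0.27 (without WNT3A 6 h replicate 1) and 2.44 (without mTeSR1 replicate 1) at 6 h, and between 0.19 (without WNT3A 18 h replicate 1) and 2.10 (without mTeSR1 replicate 1) at 18 h. The CHIR99021 18 h estimate was 0.54 without the block (FDR 0.81 by edgeR). It was called by DESeq2 (FDR 0.033) and by edgeR without CHIR99021 6 h replicate 1 (FDR 0.045) or 2 (0.044).

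Within repeats PCDH8 differed from mTeSR1 by 1.73 and 1.08 after 6 h of WNT3A, 1.31 and 1.00 after 18 h of WNT3A, 0.33 and 1.04 after 6 h of CHIR99021, and 1.33 and 1.34 for the 2 libraries at 18 h of CHIR99021, all on the log2 scale. With the repeat as a block the PCDH8 estimate after WNT3A was 1.49 at 6 h (SE 0.34, FDR 0.098 by edgeR) and 1.21 at 18 h (SE 0.34, FDR 0.085), still on the far side of the threshold. The CHIR99021 6 h against WNT3A 6 h estimate of -1.02 (SE 0.74, FDR 0.72 by edgeR) turned to 0.31 without WNT3A 6 h replicate 1.

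PCDH19, an X-linked delta-2 gene whose loss causes an epilepsy of girls and women, and whose zebrafish counterpart works with N-cadherin, was highest after 6 h of WNT3A. Its gene (ENSG00000165194) lies at chrX:100291644-100410273 on the minus strand. PCDH19 was at 11.8 and 27.4 CPM after 6 h of WNT3A, 6.59 and 8.35 CPM after 18 h of WNT3A, 6.06 and 9.12 CPM after 6 h of CHIR99021, 7.22 and 8.24 CPM after 18 h of CHIR99021, and 4.13 and 14.5 CPM in mTeSR1. The mTeSR1 libraries lay on either side of every other treated group, and repeat 2 was the higher in each group that had both (0.99 on the log2 scale in the blocked fit, FDR 0.043 by edgeR). Its log2 fold changes were 1.08 at 6 h of WNT3A against mTeSR1 (SE 0.56, FDR 0.95 by edgeR), -1.40 at 18 h against 6 h of WNT3A (SE 0.56, FDR 0.36) and -1.37 for CHIR99021 against WNT3A at 6 h (SE 0.56, FDR 0.69). The 2 libraries that stood highest, WNT3A 6 h replicate 2 and mTeSR1 replicate 2, are those whose deviations rose with transcript length. With transcript length as an offset these 3 estimates for PCDH19 were 1.00, -1.01 and -1.03 (FDR 0.75, 0.39 and 0.7 by edgeR). Without both of these libraries they were 1.51, -0.66 and -0.64 (FDR 0.43, 0.58 and 0.9). Leaving out 1 library moved the first between 0.35 (without WNT3A 6 h replicate 2) and 2.24 (without mTeSR1 replicate 2). The other two were -0.67 and -0.64 once WNT3A 6 h replicate 2 was left out.

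PCDH18, a delta-2 gene whose mouse product binds the adaptor DAB1, was the second most abundant and the steadiest of the 8. Its gene (ENSG00000189184) lies at chr4:137518918-137532494 on the minus strand. PCDH18 was at 67.8 and 91.7 CPM after 6 h of WNT3A, 75.8 and 69.1 CPM after 18 h of WNT3A, 67.8 and 73.3 CPM after 6 h of CHIR99021, 71.9 and 86 CPM after 18 h of CHIR99021, and 43.9 and 62.7 CPM in mTeSR1. All 8 treated libraries lay above both mTeSR1 libraries, and the treated groups overlapped among themselves. None of its differences from mTeSR1 passed, with an FDR of 0.57 after 6 h and 0.41 after 18 h of WNT3A, and of 0.95 after 6 h and 0.21 after 18 h of CHIR99021 by edgeR. Its log2 fold change was 0.44 after 18 h of WNT3A and 0.47 after 18 h of CHIR99021. With transcript length as an offset it was called after 18 h of CHIR99021 at 0.58 (FDR 0.046 by edgeR), and with the offset and the block after 18 h of WNT3A at 0.56 (FDR 0.033). Leaving out 1 library moved the WNT3A 18 h value of PCDH18 between 0.19 (without mTeSR1 replicate 1) and 0.72 (without mTeSR1 replicate 2). Its highest level was 2.09 times its lowest, the narrowest range of the 8, against 25.9 times for PCDH10.

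PCDH17, a delta-2 gene that in the mouse acts at synapses and along growing axons, was the scarcest, with 4 to 34 estimated counts per library. Its gene (ENSG00000118946) lies at chr13:57631810-57729311 on the plus strand and overlaps 1 antisense gene, whose reads were not separated here. PCDH17 was at 1.13 and 1.34 CPM after 6 h of WNT3A, 0.659 and 0.576 CPM after 18 h of WNT3A, 0.487 and 0.593 CPM after 6 h of CHIR99021, 0.239 and 0.395 CPM after 18 h of CHIR99021, and 0.837 and 0.624 CPM in mTeSR1. The WNT3A 6 h libraries were above all others and the CHIR99021 18 h libraries below all others. Its log2 fold changes were -1.18 after 18 h of CHIR99021 against mTeSR1 (SE 0.59, FDR 0.3 by edgeR with the block) and -1.18 for CHIR99021 against WNT3A at 6 h (SE 0.48, FDR 0.69 by edgeR). Neither passed.

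Between the times, 1 of the 8 genes was called with WNT3A, PCDH10 as above, and 0 with CHIR99021, where 0.00656% of all genes were called. For WNT3A the unadjusted p was under 0.05 for 4 of the 8, against 2017 of 15251 genes tested. For CHIR99021 at 18 h against 6 h, the unadjusted p was under 0.05 for 2 of the 8 (PCDH7 and PCDH10), against 1045 of 15251, and DESeq2 called PCDH10 among 131 genes in all. At 18 h of WNT3A both libraries lay below both of 6 h for PCDH1, PCDH7, PCDH17 and PCDH19 (4 of 8, against 21.9% of all genes tested) and above for PCDH10 (1 of 8, against 20.9%). At 18 h of CHIR99021 they lay below for PCDH7 and PCDH17 (2 of 8, against 21%) and above for PCDH9 and PCDH10 (2 of 8, against 19.3%). The median log2 fold change of the 8 genes was -0.68 for WNT3A and -0.15 for CHIR99021, against -0.00 and 0.00 over all genes tested.

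Setting the agents against each other at matched times, edgeR called none of the 8. At 6 h, 0.00656% of all genes were called for CHIR99021 against WNT3A, and 3 of the 8 (PCDH9, PCDH17 and PCDH19) had an unadjusted p under 0.05, against 996 of 15251 genes tested, while DESeq2 called 0 of the 8 and 30 genes in all. CHIR99021 lay below WNT3A at 6 h in both libraries for PCDH7, PCDH9, PCDH17 and PCDH19 (4 of 8, against 18% of all genes tested) and above for PCDH10 (1 of 8, against 16.5%). The estimate for PCDH9 was -1.08 (SE 0.39, 95% interval -1.96 to -0.20, FDR 0.69 by edgeR), and it was -0.38 with transcript length as an offset (FDR 0.77) and -0.40 without WNT3A 6 h replicate 2 (FDR 1). At 18 h, where 0% of all genes were called, CHIR99021 lay below WNT3A for PCDH10 and PCDH17 (2 of 8, against 20.6%) and above for none (0 of 8, against 18.6%). Of the 8, PCDH10 alone had an unadjusted p under 0.05 and was called by DESeq2. For PCDH1 the difference at 18 h was -0.05 with a 95% interval of -0.56 to 0.47, and for PCDH18 it was -0.00 with -0.42 to 0.42, so differences beyond those bounds lie outside the intervals. Over all genes at 18 h, 629 reached a p under 0.05 before adjustment and 10 were called by DESeq2. For the difference between the agents in the change from 6 h to 18 h, edgeR called 0% of all genes, with 574 at an unadjusted p under 0.05 and 12 called by DESeq2. Of the 8 genes neither tool called any there, and PCDH10 was the 1 of 8 with an unadjusted p under 0.05.

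Genes of related families were counted in the same way. At 18 h against mTeSR1, edgeR called 2.1% of all genes tested for WNT3A and 2.78% for CHIR99021. DESeq2 called 808 and 923 genes in all, in the same order. The CHIR99021 fits had the repeat as a block and the WNT3A fits did not, so counts of the agents are not on a like footing. With the block edgeR called 4.92% for WNT3A at 18 h, and the lists here and below were not counted in that fit. Of 3 other non-clustered protocadherins tested (of 4 in the list), edgeR called none in the 9 comparisons, with at most 1 at an unadjusted p under 0.05 and 0 called by DESeq2. Of 10 subunits of the WAVE complex tested (of 11), edgeR called none, with at most 2 at an unadjusted p under 0.05, and DESeq2 called 1, WASF3, after 18 h of CHIR99021. Of 10 large cadherins (FAT, Dachsous and CELSR genes, and CDHR1), edgeR called none, with at most 4 at an unadjusted p under 0.05, and DESeq2 called 1, CELSR3, after 18 h of WNT3A. Of 52 clustered protocadherins tested (of 53), 1 was called, PCDHGC4, a γ-cluster C-type gene, and DESeq2 also called its neighbours PCDHGC3 and PCDHGC5. PCDHGC4 was at 22.4 ± 4.56 CPM after 18 h of WNT3A and 5.07 ± 0.749 CPM in mTeSR1 (SD, n = 2 each), a rise of 2.14 on the log2 scale (SE 0.27, FDR 0.0078 by edgeR). After 18 h of CHIR99021 PCDHGC4 was at 18.5 ± 5.71 CPM (SD, n = 2), a rise of 1.98 (SE 0.25, FDR 0.0084 by edgeR with the block). Clustered genes share 3′ exons within a cluster, so the division of reads among them is uncertain. The median log2 fold change of the 52 was -0.05 after 18 h of WNT3A and 0.03 after 18 h of CHIR99021.

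Among 14 genes for reported protocadherin partners, 3 rose and 0 fell after 18 h of WNT3A, where 2.1% of all genes were called, and 1 rose and 0 fell after 18 h of CHIR99021, where 2.78% were called, by edgeR. DESeq2 called 6 of the 14 after 18 h of WNT3A (also CDH2, DAB1 and FZD7), where it called 808 genes in all. It called 4 after 18 h of CHIR99021 (also DAB1, ROR2 and SMAD3), where it called 923 in all. CDH11, a type II cadherin, was at 32.7 ± 5.73 CPM after 18 h of WNT3A, 23.3 ± 7.77 CPM after 18 h of CHIR99021 and 9.39 ± 2.04 CPM in mTeSR1 (SD, n = 2 each), and rose with both agents (FDR 0.016 for WNT3A and 0.045 for CHIR99021 by edgeR). ROR2, a receptor for non-canonical WNT ligands, rose by 2.68 after 18 h of WNT3A (SE 0.49, FDR 0.031 by edgeR), and SMAD3, a mediator of Nodal and Activin signals, by 0.87 (SE 0.17, FDR 0.043). Of 13 classical cadherins and catenins tested (of 14), CDH8, another type II cadherin, rose with WNT3A by 1.68 at 6 h (FDR 0.017) and 1.63 at 18 h (FDR 0.01), and with 18 h of CHIR99021 by 1.41 (FDR 0.019), all by edgeR. CDH11 was the only other gene that edgeR called in that list, and DESeq2 also called CDH2, CDH4 and CTNNA2 after 18 h of WNT3A and CDH4 after 18 h of CHIR99021. The median log2 fold change of the partners was 0.25 after 18 h of WNT3A, against 0.02 over all genes tested.

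Genes of the primitive streak and paraxial mesoderm, the tissues in which PCDH8 is known, were also counted. Of 11 tested (of 17), 1 rose after 6 h of WNT3A, 6 after 18 h of WNT3A, 1 after 6 h of CHIR99021 and 4 after 18 h of CHIR99021, and none fell, by edgeR. In the same order, edgeR called 0.433%, 2.1%, 0.0197% and 2.78% of all genes tested. DESeq2 called 6, 7, 3 and 8 of the 11 in that order, where it called 249, 808, 65 and 923 genes in all. Its calls at 6 h of WNT3A were SP5, TBXT, EOMES, MIXL1, NODAL and CDX2. In mTeSR1 TBXT and WNT8A were at 0 CPM, EOMES at 0.142 CPM and SP5 at 0.183 CPM. These genes passed the filter only through treated groups and had almost no room to fall. Their direction was thus fixed in advance, and their counts are no test of it. SP5, a direct WNT target, was the gene that edgeR called at 6 h with each agent. SP5 was at 243 ± 96.2 CPM after 6 h and 321 ± 47.9 CPM after 18 h of WNT3A (SD, n = 2 each). With CHIR99021 it was at 59.2 ± 2.55 CPM after 6 h and 253 ± 166 CPM after 18 h, against 0.183 ± 0.259 CPM in mTeSR1 (SD, n = 2 each). The other genes called by edgeR were TBXT, EOMES, MIXL1, NODAL and WNT8A, and DESeq2 also called CDX2 and DLL1. EOMES, a T-box gene of the streak, was at 78.1 ± 29.8 CPM after 18 h of WNT3A, 43 ± 45 CPM after 18 h of CHIR99021 and 0.142 ± 0.201 CPM in mTeSR1 (SD, n = 2 each). Among the other markers, FOXD3, listed for neural crest and also expressed in pluripotent cells, fell to 3.9 ± 1.02 CPM after 6 h of WNT3A, 2.92 ± 0.67 CPM after 18 h of WNT3A and 3.82 ± 2.45 CPM after 18 h of CHIR99021, against 49.8 ± 5.96 CPM in mTeSR1 (SD, n = 2 each). After 6 h of CHIR99021 edgeR did not call FOXD3, while DESeq2 did. Of 4 fibroblast and mesenchyme markers tested, COL1A1 fell by 1.04 on the log2 scale, PDGFRA fell by 2.30 and COL1A2 rose by 0.99 after 18 h of WNT3A (FDR 0.017, 0.039 and 0.048 by edgeR), and COL1A1 fell by 1.16 after 18 h of CHIR99021 (FDR 0.013). Of 2 trophoblast and amnion markers tested, GABRP was called after 18 h of CHIR99021, at 1.19 ± 0.0882 CPM against 3.02 ± 1.75 CPM in mTeSR1 (SD, n = 2 each). Of 6 neural markers tested, MAP2, a dendritic microtubule protein, fell by 1.79 on the log2 scale after 18 h of CHIR99021 (FDR 0.018 by edgeR with the block), to 4.35 ± 0.0737 CPM against 23.5 ± 8.77 CPM in mTeSR1 (SD, n = 2 each). After 18 h of WNT3A edgeR did not call MAP2, while DESeq2 did. The neural list, the tissue best known for this family, summed to 250 and 363 CPM after 6 h of WNT3A, 226 and 269 CPM after 18 h of WNT3A, 290 and 341 CPM after 6 h of CHIR99021, 216 and 245 CPM after 18 h of CHIR99021, and 287 and 368 CPM in mTeSR1. The part of these markers in the levels of the 8 protocadherins was not tested.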

How the data were processed

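Poly-A RNA of ESI017 cells was sequenced in paired ends. The authors deposited estimated counts per Ensembl gene, and the submitters' processing notes name Salmon 1.8.0 and GRCh38. No source used here names the transcript set, strand setting or filters. Identifiers were summed per symbol and rounded. Library totals were 1.66e+07 to 2.67e+07, and the floor of 3 counts covers counting error only.

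All 10 libraries entered edgeR 4.0.16 in R 4.3.3 (quasi-likelihood test, robust, TMM, minimum count 10, minimum total 15), with Benjamini-Hochberg adjustment over 15251 genes and a threshold of 0.05. The biological repeat entered as a block where CHIR99021 at 18 h was compared, and elsewhere it did not. The series' design text describes the repeats, and deviations of same-numbered libraries correlated at 0.261 to 0.595 over 6 pairs of groups. No replicates agreed within sampling noise (chi-square per degree of freedom 13.1 to 109). P-values measure the spread between libraries of 1 line, which may be technical for CHIR99021 at 18 h.

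Intervals of 95% come from the fit. CPM per kb used GENCODE lengths, and log2 CPM a prior count of 2. Fold changes are printed for pairs that were called or reached 1 on the log2 scale. Those of PCDH18 and of PCDH9 at 18 h of CHIR99021, called under an alternative, and smaller differences between the agents were added after their values were seen. Alternatives were DESeq2 1.42.0, RLE scaling, no filter, identifiers unsummed, a length offset, the block, the compared groups alone and leaving out libraries. The procedure was tested on simulated data. The 8 genes, the gene lists and the tests were chosen with earlier results of these data known.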

Additional observations from a re-analysis of the deposited data

Results flagged for a closer look

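PCDH10 differed between the WNT3A times against the same mTeSR1 libraries. At 18 h against 6 h of WNT3A its log2 fold change was 4.11, which passed edgeR's test (FDR 0.027), with both 18 h libraries above mTeSR1 and both 6 h libraries below it.

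PCDH17 lay above its repeat's mTeSR1 library in both 6 h libraries of WNT3A and below it in both 18 h libraries. Its log2 fold change at 18 h against 6 h was -0.99, which did not pass edgeR's test (unadjusted p 0.067, FDR 0.4), at 10 to 34 estimated counts per WNT3A library. At 6 h both PCDH17 libraries of CHIR99021 lay below mTeSR1 of their repeat and both of WNT3A above it. The difference between the agents was -1.18 (FDR 0.69 by edgeR). In repeats 1 and 2 the estimated counts of PCDH17 were 16 and 11 in mTeSR1, 14 and 10 after 18 h of WNT3A, and 9 and 11 after 6 h of CHIR99021. Counts in repeat 2 were thus equal for mTeSR1 and CHIR99021 6 h before scaling, with a log2 difference of -0.06 after it. Every group has 2 libraries, so no group was large enough to look for single outlying libraries.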

How the results depend on the processing

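Of 541 refits of single-gene changes over 29 results, 485 kept direction and side of the threshold, 32 newly passed, 23 no longer passed and 1 reversed, PCDH8 in CHIR99021 against WNT3A at 6 h (-1.71 to 0.31 leaving out 1 library, 0.31 without WNT3A 6 h replicate 1). The cause of the changes below was not tested. As fitted, genes called numbered 66 for WNT3A 6 h, 320 for WNT3A 18 h, 3 for CHIR99021 6 h and 424 for CHIR99021 18 h against mTeSR1, 22 for WNT3A and 1 for CHIR99021 at 18 h against 6 h, 1 for CHIR99021 against WNT3A at 6 h, 0 at 18 h and 0 for the difference in change. Members called were 0, 2, 0, 1, 1, 0, 0, 0 and 0 in that order, in which the settings below are given, with unnamed counts within 1.5 times.

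With the replicate block, genes called were 168, 751 and 21 for WNT3A 6 h, WNT3A 18 h and CHIR99021 6 h, 279 for WNT3A between times and 3 between agents at 6 h, and members 1 (WNT3A 6 h) and 2 (WNT3A between times). Without the block, CHIR99021 18 h had 181 genes and CHIR99021 between times 0. The block changed the member calls of PCDH10 at 6 h of WNT3A and of PCDH7 at 18 h of WNT3A, the latter both against mTeSR1 and against 6 h. No other member call changed with it. With DESeq2, genes were 249, 808, 65, 923, 415, 131, 30, 10 and 12, and members 2, 3, 1, 3, 2, 1, 0, 1 and 0. With no filter on low counts, genes were 173, 576 and 32 for WNT3A 6 h, WNT3A 18 h and CHIR99021 6 h, 275 and 21 between times, 9 between agents at 6 h and 1 for the difference in change, and members 2 (WNT3A 6 h), 1 (CHIR99021 6 h) and 3 (CHIR99021 18 h). With a length offset, genes were 114 (WNT3A 6 h), 8 (CHIR99021 6 h), 776 (CHIR99021 18 h), 72 and 12 between times and 2 between agents at 6 h, and members 4 (CHIR99021 18 h). With the block and the length offset, genes were 270, 1121, 44, 579 (WNT3A between times) and 7 (agents at 6 h), and members 2 (WNT3A 6 h), 5 (WNT3A 18 h) and 2 (WNT3A between times). With the compared groups alone, genes were 2 (WNT3A 6 h), 16 (CHIR99021 6 h), 1241 (CHIR99021 18 h), 1 and 0 between times and 3 between agents at 6 h, and members 0 for WNT3A between times. Per identifier, genes were 1 (CHIR99021 6 h), 254 (CHIR99021 18 h), 0 (CHIR99021 between times), 1 (agents at 18 h) and 1 (difference in change). Without mTeSR1 replicate 2 and WNT3A 6 h replicate 2, chosen after seeing the length trend, genes were 10, 128, 1, 96, 0, 29, 0, 6 and 11, and members 1 (WNT3A 18 h), 0 (CHIR99021 18 h) and 0 (WNT3A between times).

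Leaving out 1 library at a time, genes ranged over 13 to 88, 53 to 387, 1 to 14, 10 to 522, 0 to 101, 0 to 83, 0 to 5, 0 to 6 and 0 to 6, and members over 0 to 1, 0 to 2, 0 to 0, 0 to 2, 0 to 1, 0 to 1, 0 to 0, 0 to 0 and 0 to 0. Depth limits PCDH17 most, at 4 to 34 counts a library.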
